A study of Homo sapiens with 13 samples.

Results

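The TEAD4 peak list of MDA-MB-231 cells held 8406 of the 50467 peaks in the 4 lists of the series. Every row of that list was taken, with no further choice. It came from chromatin immunoprecipitation and sequencing (ChIP-seq) of 2 TEAD4 libraries, replicates 1 and 2, made with the antibody TEF-3 (N-G2). They were set against 2 mouse IgG libraries, numbers 3 and 4, in which a nonspecific antibody replaced the specific one. All libraries came from MDA-MB-231, an established human breast cancer line grown in DMEM:F12 with 10% FBS, and no group carried a treatment or an engineered allele. The YAP (7709 peaks), TAZ (9798) and JUN (24554) lists of the same line served only as background. The controls were rabbit IgG 1 and 2 for YAP and TAZ, and mouse IgG 3 with 5 for JUN, so differences between lists cannot be told apart from differences in control. Raw-file names in the labels also give the YAP and TAZ libraries other dates than the TEAD4 libraries, which share theirs with their own IgG controls and with JUN replicate 1.

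TEAD4 belongs to the TEAD family, the DNA-binding proteins at the end of the Hippo pathway. TEAD proteins hold the DNA, and the coactivators YAP and TAZ, which cannot bind DNA alone, dock onto them when Hippo signalling is low. JUN is a subunit of AP-1, a different DNA-binding factor that often shares enhancers with TEAD proteins, and MDA-MB-231 is a common model for both because its Hippo pathway is impaired by a mutation upstream. The questions put to the list were how evenly TEAD4 peaks lie along the chromosomes, how they gather, and what sets wide, narrow and strong peaks apart. One list stood for both replicates, so there is no spread between replicates, and no difference below was tested. Intervals are 95% intervals for counting error only (exact binomial for shares, exact Poisson for counts, order statistics for medians), and peaks are not replicates of a condition. Positions are on hg19. Genes of that build were not looked up, so regions carry positions in place of gene names.

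TEAD4 peaks were short and centred. Their width had a median of 503.5 bp (500 to 508) and ran between 254 and 2605 bp, and together they covered 4.60 Mb. Divided into 3 equal stretches, the peak had its summit, the point of highest signal, in the middle stretch at 90.4% of peaks. The fold enrichment over IgG, the authors' deposited value for each peak as is its −log10 p, had a median of 7.20 (7.14 to 7.28), a lowest value of 2.90 and a highest of 33.0. The −log10 p had a median of 48.0 (46.9 to 48.8) and ran between 24.7 and 365.4. Within the list the rank order of −log10 p followed enrichment (Spearman rho 0.91 across peaks, which are not independent).

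Enrichment and p together gave back the values behind them at all 8406 peaks. With the arithmetic of the peak caller (1 added to both sides of the ratio, Poisson p), each peak had 1 pair of values for TEAD4 signal and background, or 2 pairs at 213 peaks. Divided by a constant step of 0.939, the TEAD4 signal was a whole number at 100% of peaks, to within 0.05. It is called the fragment count at the summit below, and it had a median of 98 (97 to 99), a lowest value of 58 and a highest of 386. The background, the signal expected at the summit given the local IgG signal, stays on the scale of the signal before that division, on which 1 TEAD4 fragment counts 0.939. In these scaled fragments it had a median of 12 and a lowest value of 8.66. Fragment counts and backgrounds set side by side below are therefore on slightly different scales, and enrichment is not their plain quotient. That lowest value, the genome-wide level under which the caller lets no background fall, was shared by 15.7% of peaks (14.9 to 16.5). At 741 peaks (8.82%, 8.22 to 9.44) the background was at least 2 times the lowest value, and at 84 peaks (0.999%, 0.798 to 1.24) at least 4 times. The TEAD4 list therefore held peaks with much signal over little background and peaks with much signal over much background. Enrichment alone does not separate the second kind from peaks with little signal over little background.

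TEAD4 peaks lay on every autosome and on X, at 2.88 per Mb of the span that the 4 lists cover. Chromosome 17 was the densest, with 4.32 peaks per Mb (3.88 to 4.79; 350 peaks). Chromosome 6 followed with 3.91 per Mb (3.62 to 4.22; 667 peaks), then chromosome 20 with 3.69 (3.23 to 4.19) and chromosome 19 with 3.61 (3.14 to 4.13). The intervals of these 4 chromosomes overlap, and their order was not tested. Of the 667 peaks on chromosome 6, 98 lay between 26 and 29 Mb, a dense interval described below that raises its density. At the other end, X held 0.805 peaks per Mb (0.669 to 0.961; 122 peaks), and the sparsest autosome, chromosome 16, held 2.19 (1.89 to 2.52). The interval of X lies wholly under those of all 22 autosomes.

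**Figure D1:**
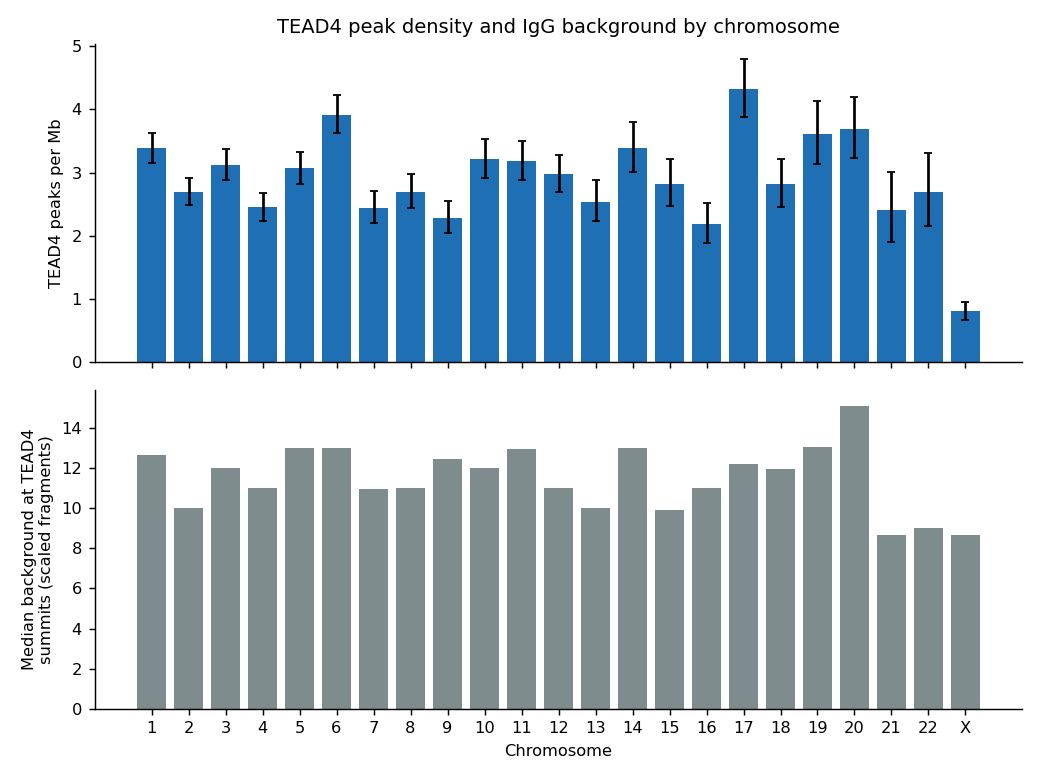
Upper panel: TEAD4 peaks per Mb of each chromosome (bars) with exact Poisson 95% intervals (lines). Lower panel: median background at TEAD4 summits, in scaled fragments (1 TEAD4 fragment counts 0.939). Chromosome 17 stands highest at 4.32 peaks per Mb and X lowest at 0.805, and X also has the lowest median background, 8.66, together with chromosome 21.

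The scarcity on X was common to the lists. The density on X was 0.269 times that of the autosomes for TEAD4, against 0.275 for YAP, 0.275 for TAZ and 0.309 for JUN. The IgG background moved with it: 73.8% of the TEAD4 peaks on X sat at the lowest background, against 15.7% over the list. Chromosomes 21 and 22 were like X in background but not in density, with 54.5% and 47.2% of peaks at the lowest background and 2.41 and 2.69 peaks per Mb. Chromosome 20 was the reverse, with a median background of 15.1 and 0.87% of its peaks at the lowest value. Across the 23 chromosomes TEAD4 density and median background had a rho of 0.77, or 0.73 without X, both given as a description. The part of the background in the density was not tested.

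TEAD4 did not hold a constant ratio to JUN between chromosomes. Over the list there were 34.2 TEAD4 peaks for every 100 JUN peaks, with the most on chromosome 6 (42.9) and the fewest on chromosome 22 (21.6). The ratio of chromosome 6 is raised by its interval of 26 to 29 Mb. That interval held 98 of its 667 TEAD4 peaks but 24 of its 1553 JUN peaks. Toward the ends of the spans the lists also differed. Within 10 Mb of an end TEAD4 had 2.97 peaks per Mb against 2.86 elsewhere, while JUN had 9.78 against 8.14.

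Neighbouring TEAD4 summits were usually far apart, with a minority in close company. The distance between neighbours had a median of 116914 bp (110677 to 122524), with a middle range of 27454 bp (lower quartile) to 378310.5 bp (upper quartile). Another TEAD4 summit lay within 10 kb of 25.4% of peaks (2134 peaks), within 100 kb of 68.0% and within 1 kb of 2.90%. At the other extreme 109 peaks (1.3%) had no other summit within 1 Mb. Close company was about as frequent in other lists cut to the same length. The share within 10 kb of a neighbour was 25.4% (24.5 to 26.3) for TEAD4, against 26.1% (25.2 to 27.1) of the 8406 strongest TAZ peaks and 23.3% (22.4 to 24.2) of the 8406 strongest JUN peaks. The TEAD4 share was below the 41.7% of the full JUN list, which is longer.

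Close neighbours were little alike in enrichment, the only measure of strength compared between them. For pairs within 10 kb the enrichments of the 2 peaks had a rho of 0.098 (1181 pairs), and for pairs over 100 kb apart 0.020 (4446 pairs). Their backgrounds did go together, with a rho of 0.64 within 10 kb and 0.47 beyond 100 kb. In the clusters of 3 or more described next, the strongest member had 1.89 times the enrichment of the weakest, as a median over clusters.

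The 5 closest pairs had summits 419 to 501 bp apart. The closest, on chromosome 9 at 132787072 and 132787491, had enrichments of 5.73 and 9.08 and fragment counts of 73 and 117. The next lay on chromosome 12 at 116962925 and 116963364 (439 bp) and on chromosome 3 at 23670813 and 23671253 (440 bp). All 6 of these peaks overlapped a JUN peak, as did both of the pair on chromosome 6 at 42104797 and 42105298. Over the whole list 68.3% of peaks did. In the pair on chromosome 16 at 3241505 and 3241980 neither peak overlapped JUN. Its enrichments, 10.1 and 7.26, were the highest sum of the 5 pairs. No pair was closer than 419 bp, a distance under the median width of a peak.

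Summits were then chained at a distance commonly used to join enhancers; the widest gap joined was 12490 bp and the narrowest not joined 12511 bp. In this way 6011 peaks stood alone and 836 pairs formed. A further 214 clusters held 3 or more peaks, with 723 peaks or 8.6% of the list (8.01 to 9.22), on 22 chromosomes. Their summits spanned a median of 11.3 kb, the shortest 1.69 kb and the longest 47.8 kb. Peaks in clusters of 3 or more had a median enrichment of 7.57 (7.35 to 7.88), against 7.15 (7.07 to 7.23) for single peaks. The gap was wider for fragments, 114 (109 to 120) in these clusters against 96 (95 to 97), and the background was also higher, 13.5 (13 to 14) against 11.6 (11.6 to 11.8). Clusters were thus somewhat stronger than single peaks and sat on more IgG signal, whose part in the difference was not tested.

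**Figure D2:**
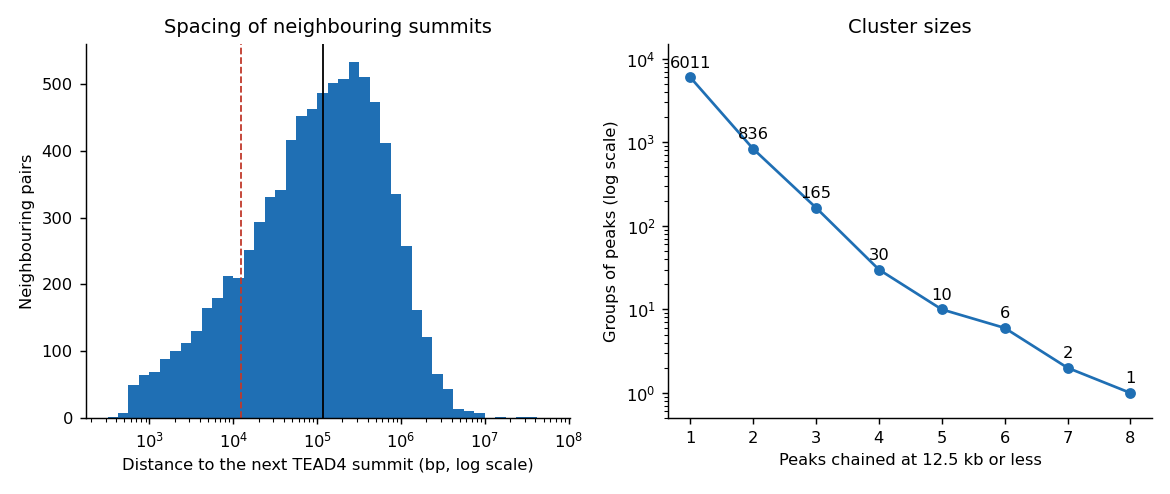
Left: number of neighbouring pairs by the distance between their summits, in bp on a log scale, with the median (116914 bp, solid line) and the chaining distance (dashed). Right: number of groups of chained peaks (log scale) by the number of peaks in the group, 6011 single peaks, 836 pairs and 1 group of 8.

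Company with the other factors differed between single peaks, pairs and larger clusters. Over the whole list 68.7% of TEAD4 peaks overlapped a YAP peak, 78.8% a TAZ peak and 68.3% a JUN peak. In pairs YAP was present at 73.2%, TAZ at 83.2% and JUN at 71.5%, all above single peaks. In clusters of 3 or more YAP was at 63.9%, TAZ at 86.3% and JUN at 67.8%. In clusters of 4 or more (49 clusters, 228 peaks) YAP was present at 51.8% (45.1 to 58.4) against 68.0% (66.8 to 69.2) of single peaks. JUN was present at 54.8% (48.1 to 61.4) against 67.5% (66.3 to 68.7). TAZ ran the other way, at 88.6% (83.7 to 92.4) against 76.7% (75.6 to 77.8). Without the interval of 26 to 29 Mb on chromosome 6, left out after seeing the data, clusters of 4 or more had YAP at 60.5% (53.3 to 67.4) against 68.3% (67.1 to 69.4) of single peaks and JUN at 64.1% (56.9 to 70.8) against 67.8% (66.6 to 69.0). Both of these pairs of intervals overlap. TAZ was at 87.7% (82.2 to 91.9) against 76.7% (75.6 to 77.7). Of the 214 clusters of 3 or more, 91 had JUN at every peak and 23 at none. All 11 clusters between 26 and 29 Mb on chromosome 6 were among those 23.

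The clusters with the most peaks were of 2 kinds. The largest held 8 peaks on chromosome 6 (28678269 to 28726437), with fragment counts between 85 and 345, a median background of 22, 7 peaks with TAZ and none with YAP or JUN. Both clusters of 7 lay nearby on chromosome 6 (28757316 to 28785217, and 26305492 to 26343192). They had no peak with YAP or JUN and median backgrounds of 23 and 30. The next cluster, 6 peaks on chromosome 14 (93496333 to 93512829), was the other kind. All 6 of its peaks overlapped YAP and JUN and 5 overlapped TAZ, at a median background of 12.2 and enrichments between 5.04 and 16.1. The last of the 5, again with 6 peaks on chromosome 14 (21077213 to 21101518), was like those of chromosome 6, with TAZ at 6 peaks, YAP at 1, JUN at none and a background of 22.5.

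Counted in bins of 1 Mb, the list was uneven but broad. Of the 2605 bins with a peak of any list, 84.2% (82.7 to 85.6) held a TEAD4 peak, the median was 2, and the fewest bins that held 50% of the list numbered 504. The variance of the counts was 3.14 times their mean, against 3.13 for TAZ and 3.54 for JUN at the same list length. At 10 or more peaks there were 114 bins on 21 chromosomes, with 1430 peaks or 17% of the list (16.2 to 17.8). The lists cut to 8406 peaks had 120 such bins for TAZ and 157 for JUN. TEAD4 hot spots were thus about as many as those of TAZ and fewer than those of JUN at equal length.

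The 3 bins with the most TEAD4 peaks were neighbours on chromosome 6. The bin of 28 to 29 Mb held 37, that of 27 to 28 Mb 32 and that of 26 to 27 Mb 29. The highest bin elsewhere, 11 to 12 Mb on the same chromosome, held 23 TEAD4 peaks beside 17 YAP, 18 TAZ and 30 JUN peaks. The bin of 12 to 13 Mb on chromosome 11 held 21, and those of 172 to 173 Mb on chromosome 1 and 69 to 70 Mb on chromosome 11 held 19 each. The last 3 of the top 10 lay on chromosome 20 (49 to 50 Mb, 18 peaks), chromosome 2 (235 to 236 Mb, 17) and chromosome 22 (27 to 28 Mb, 17). In each of these 7 bins JUN had more peaks than TEAD4, 29 to 37, and their median backgrounds ran between 8.85 and 17.0. The bin on chromosome 11 at 69 Mb also had the highest share of close company among the 7, with 12 of its 19 peaks within 10 kb of another, and the bin on chromosome 22 held one of the 10 most enriched peaks.

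**Figure D3:**
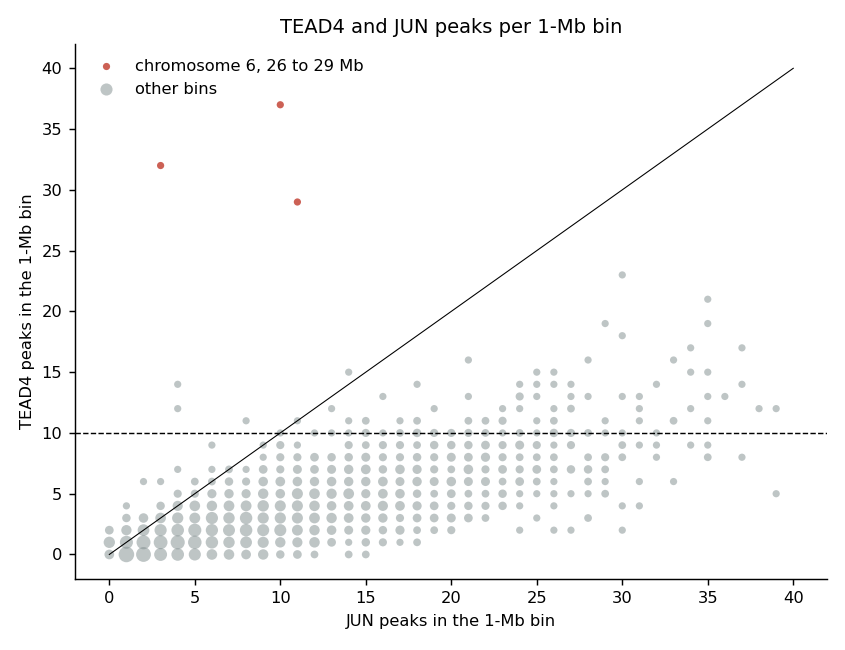
TEAD4 peaks against JUN peaks in each 1-Mb bin; larger points stand for more bins with the same pair of counts. The dashed line marks 10 TEAD4 peaks and the solid line equal counts. The 3 bins of chromosome 6 between 26 and 29 Mb hold 37, 32 and 29 TEAD4 peaks beside 10, 3 and 11 JUN peaks and stand far above the line.

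Across all bins TEAD4 counts followed those of YAP (rho 0.86), TAZ (0.88) and JUN (0.75), as a description over bins that neighbour each other. Hot bins were richer in TEAD4 relative to JUN than the rest, a ratio that the choice of bins by TEAD4 count favours: 53.6 TEAD4 peaks for every 100 JUN peaks in hot bins, against 31.9 in the others. Among the 114 hot bins, 105 held more JUN than TEAD4 peaks and 9 did not. The 9 were looked at after their values were seen. Beside the 3 of chromosome 6 they were 57 to 58 and 8 to 9 Mb on chromosome 17, 3 to 4 Mb on chromosome 16, 21 to 22 Mb on chromosome 14, and 161 to 162 and 145 to 146 Mb on chromosome 1.

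These 9 bins differed from the other 105 in much besides the counts that chose them. Of their 171 TEAD4 peaks, 16.4% (11.2 to 22.8) overlapped YAP, against 75.4% (72.9 to 77.7) of 1259 in the others. TAZ was at 88.9% (83.2 to 93.2) against 82.7% (80.5 to 84.7). Close neighbours were more frequent, 70.2% (62.7 to 76.9) against 41.2% (38.5 to 44.0), and summits had more fragments, a median of 222 against 104. The median background was 25 in the 9 bins against 13 in the others, and its part was not tested. The 3 bins of chromosome 6 held 98 of the 171 peaks. In the other 6 bins the median background was 14.5, the median fragment count 146, and the shares were 30.1% (19.9 to 42) for YAP, 84.9% for TAZ and 67.1% (55.1 to 77.7) for close neighbours. A high background did not mark all 9. The bin on chromosome 16 had a median of 8.83 and that on chromosome 17 at 57 Mb 12, while the remaining 7 ran between 22.5 and 30. The bin on chromosome 16 held 14 TEAD4 peaks, all with TAZ, 4 with YAP and 3 with JUN, and 13 of the 14 had a neighbour within 10 kb. That on chromosome 17 at 57 Mb held 15, of which 10 had YAP, 9 TAZ and 7 JUN.

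Between 26 and 29 Mb, chromosome 6 is known for its clusters of histone and transfer RNA genes. The 98 TEAD4 peaks there had a median of 247.5 fragments (219 to 297) against 98 over the list, and a background of 27.5 (25 to 32) against 12. Since both were raised, their median enrichment of 7.96 (7.33 to 8.37) was little above the 7.20 of the list. YAP was present at 6 of the 98 (6.12%, 2.28 to 12.8), JUN at 4 (4.08%, 1.12 to 10.1) and TAZ at 90 (91.8%, 84.5 to 96.4). Clusters of 3 or more took in 52.0% of these peaks, against 8.6% of the list. The numbers in the peak names run to 28115 over the list, and if they count all candidate peaks, 29.9% of candidates were listed; by the same reckoning, between the first and last listed peak of each bin, the share was 59.2%, 57.1% and 75.5% in the bins starting at 26, 27 and 28 Mb. It reached 83.3% in hot bins elsewhere (chromosome 13 at 75 Mb and chromosome 12 at 116 Mb, 10 peaks each). Without this interval the variance of bin counts was 2.86 times their mean, against 3.14 with it, so the counts were uneven without it as well. Hot bins then held 50.4 TEAD4 peaks for every 100 JUN peaks, a ratio that the choice of bins by TEAD4 count favours.

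Peaks of the highest background also differed from the other peaks in YAP and JUN outside that interval. Of the 84 peaks with a background at least 4 times the lowest, none overlapped a YAP peak, which allows a share of up to 3.57% if 3 counts is taken as the limit of a count of 0 and of up to 4.30% by the exact binomial interval, while 77.4% (66.9 to 85.8) overlapped TAZ and 5.95% (1.96 to 13.3) JUN. Leaving out the interval left 54 such peaks on 13 chromosomes, again none with YAP (up to 5.56% and 6.60% by the same 2 limits), 68.5% with TAZ and 7.41% (2.06 to 17.9) with JUN. Between 2 and 4 times the lowest, outside the interval, YAP was at 67.4% (63.5 to 71.2) and JUN at 65.1% (61.1 to 68.9). Above the lowest and under 2 times, outside the interval, 6338 peaks had YAP at 71.1% (70.0 to 72.2) and JUN at 70.7% (69.6 to 71.8). At the lowest background YAP was at 65.1% (62.4 to 67.7) and JUN at 65.8% (63.1 to 68.3). The shares thus showed no steady order under 4 times the lowest. Inside the interval the band of 2 to 4 times held 58 peaks, of which 3 overlapped YAP and 1 JUN. YAP and JUN were thus scarce at the highest backgrounds both inside and outside the interval, and inside it also below them. Since YAP was called against rabbit IgG and JUN against mouse IgG with 1 other library, what the background does to the calls of those lists was not tested.

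Wide peaks were stronger than narrow ones and kept more company. The widest peaks (628 bp or more, 2102 peaks, cut at the upper quartile) had a median enrichment of 9.27 (9.02 to 9.46), against 6.04 (6.02 to 6.11) for the narrowest (418 bp or less, 2117 peaks, cut at the lower quartile). Their fragment counts were 138 (134 to 142) against 78 (77 to 79), and their −log10 p 80.2 (76.8 to 84.4) against 33.4 (32.7 to 33.8). Background differed less, 12.6 (12.3 to 12.8) against 11 (10.9 to 11). A neighbour within 10 kb was present at 32.0% (30 to 34.0) of wide peaks against 20.03% (18.3 to 21.8) of narrow ones. Width, enrichment, −log10 p and fragment count all come from the same peak call and are not independent. Width and fragment count had a rho of 0.54 across the list.

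The other factors were found more often at wide TEAD4 peaks. YAP overlapped 83.7% (82.0 to 85.2) of wide peaks against 47.8% (45.6 to 49.9) of narrow ones. TAZ overlapped 92.4% (91.2 to 93.5) against 58.9% (56.8 to 61.0), and JUN 81.3% (79.5 to 82.9) against 54.2% (52.0 to 56.3). Peaks with none of the 3 made up 3.76% of the wide and 22.0% of the narrow. A wider peak also has more bases in which 1 can overlap: with the JUN summit required within 200 bp of the TEAD4 summit, the shares were 68.8% of wide and 50.4% of narrow peaks, a smaller difference in the same direction.

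The same comparison was made within parts of the list by strength. The list was divided into 3 equal parts by fragment count, and the peaks past the upper and lower quartile of width in each part were compared. In the lowest part JUN was at 81.4% (78.3 to 84.2) of wide against 48.1% (44.4 to 51.8) of narrow peaks, at median fragment counts of 74 and 70. In the middle part it was at 83.1% (80.1 to 85.8) against 57.6% (53.9 to 61.3), at counts of 99 and 95. In the highest part it was at 83.2% (80.2 to 85.9) against 62.2% (58.5 to 65.7), but there the wide peaks were also stronger, with 185 against 141 fragments. With the JUN summit within 200 bp, a setting chosen after seeing the data, the shares were 68.0% against 44.6% in the lowest part, 69.0% against 53.8% in the middle and 71.2% against 58.9% in the highest. For YAP the gap closed only in the highest part. YAP was at 56.1% of wide against 36.3% of narrow peaks in the lowest part, and at 81.4% against 61.5% in the middle. In the highest part it was at 88.7% (86.2 to 91.0) against 86.9% (84.2 to 89.3), where the intervals overlap. These differences were not tested, and strength was matched only roughly.

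**Figure D4:**
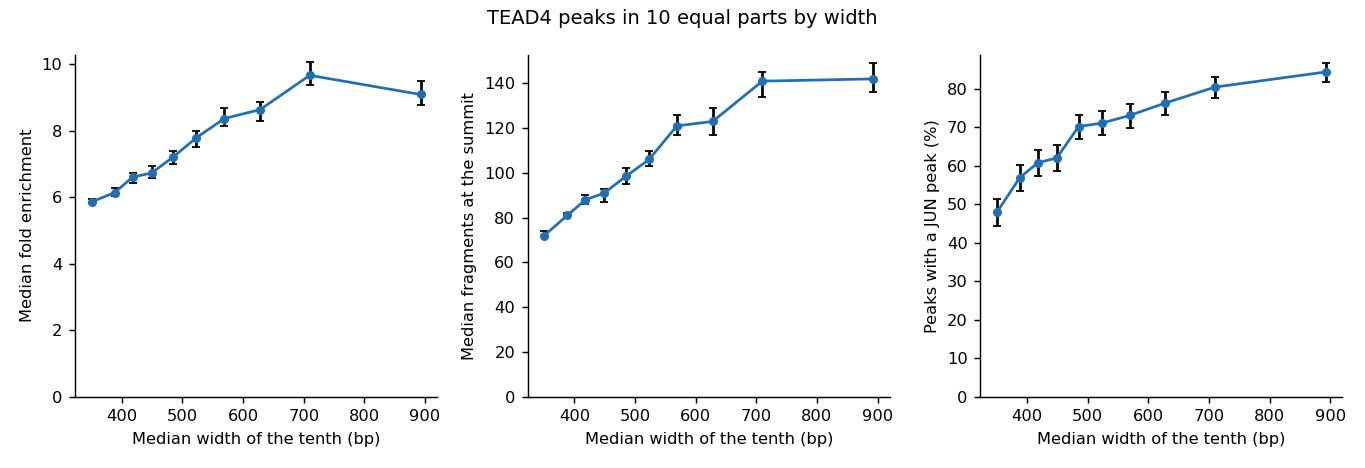
TEAD4 peaks in 10 equal parts by width, each placed at its median width in bp, with the median fold enrichment (left), the median fragments at the summit (middle) and the percent of peaks that overlap a JUN peak (right); lines are 95% intervals. Enrichment is 5.86 in the narrowest part, 9.66 in the ninth and 9.08 in the widest, while the share with JUN climbs throughout, 47.9% in the narrowest to 84.4% in the widest.

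At the wide end the values levelled off. Over 10 equal parts by width the median enrichment was 9.66 (9.37 to 10.1) in the ninth and was 9.08 (8.77 to 9.48) in the widest, intervals that overlap, and the median fragment counts were 141 (134 to 145) and 142 (136 to 149). Summits of wide peaks were also less central, with 70.6% in the middle stretch against 99.3% in narrow peaks, and in the 100 widest 36%. The widest peak of all, on chromosome 6 (26156512 to 26159116, 2605 bp), had an enrichment of 3.40 over a background of 41 and overlapped none of the other lists. The next were on chromosome 17, at 8124594 to 8126612 (2019 bp, 9.48-fold) and at 8089368 to 8091323 (1956 bp, 7.47-fold), both with TAZ and without YAP or JUN. The remaining 2 of the 5 overlapped all 3 other factors. They lay on chromosome 5 (148292437 to 148294326, 19.5-fold) and on chromosome 6 (26055057 to 26056830, 8.89-fold).

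The most enriched TEAD4 peaks sat over little background, with all 3 other factors at 9 of the first 10. First came chromosome 18 (71983878 to 71984621), at 33.0-fold with 338 fragments (302.9 to 376) over a background of 8.66. Next was chromosome 7 (5630858 to 5631537), at 31.2-fold with 320 fragments, the only one of the 10 without a JUN peak. After it came chromosome 4 (165125359 to 165126103), at 30.1-fold with 308 fragments. The Poisson intervals of these 3 fragment counts overlap, and their order was not tested. The other 7 had enrichments between 28.21 and 29.15. They include 2 sites on chromosome 1 (23523380 to 23523890, and 19378901 to 19379531). The remainder lay at 63400065 to 63400769 of chromosome 15, at 111100204 to 111101129 of chromosome 13 and at 176621127 to 176621702 of chromosome 5. The last pair was on chromosome 19 (2540576 to 2541328) and, next to a weaker peak, on chromosome 22 (27857143 to 27857954). All 10 overlapped YAP and TAZ, against 68.7% and 78.8% of the list. Of the 10, 7 belonged to no cluster, near the 71.5% of all peaks that stood alone.

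Ranking by −log10 p gave a similar but not identical head of the list. The highest value, 365.4, belonged to the peak on chromosome 19 at 2540576 to 2541328, ninth by enrichment, with 361 fragments over a background of 11. The peak on chromosome 18 followed with 365.0. The next 2 lay on chromosome 19 (41729202 to 41729880, 352.1) and chromosome 3 (197216729 to 197217506, 348.6), and the next, at 345.6, was the peak of chromosome 1 at 19378901. Of the 100 peaks with the highest p, 61 were among the 100 most enriched (61%, 50.7 to 70.6). The peak of chromosome 3 shows the difference: it was at place 47 by enrichment and place 3 by fragment count, with 377 fragments over a background of 14.3.

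Ranking by fragment count gave another head of the list. The 100 peaks with the most fragments had a median background of 34 (31 to 37), against 9.06 (8.91 to 9.90) for the 100 most enriched. YAP was at 31% (22.1 to 41.0) of the first and at 100% of the second, JUN at 29% (20.4 to 38.9) and 79% (69.7 to 86.5), and TAZ at 100% of both. In the first set 30 peaks came from chromosome 6 between 26 and 29 Mb, in the second none. The most fragments, 386 (348.4 to 426.5), were at chromosome 6 (28908498 to 28909727), a peak named after its values were seen. Its background was 63 and its enrichment 5.68, which put it at place 6681 by enrichment.

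**Figure D5:**
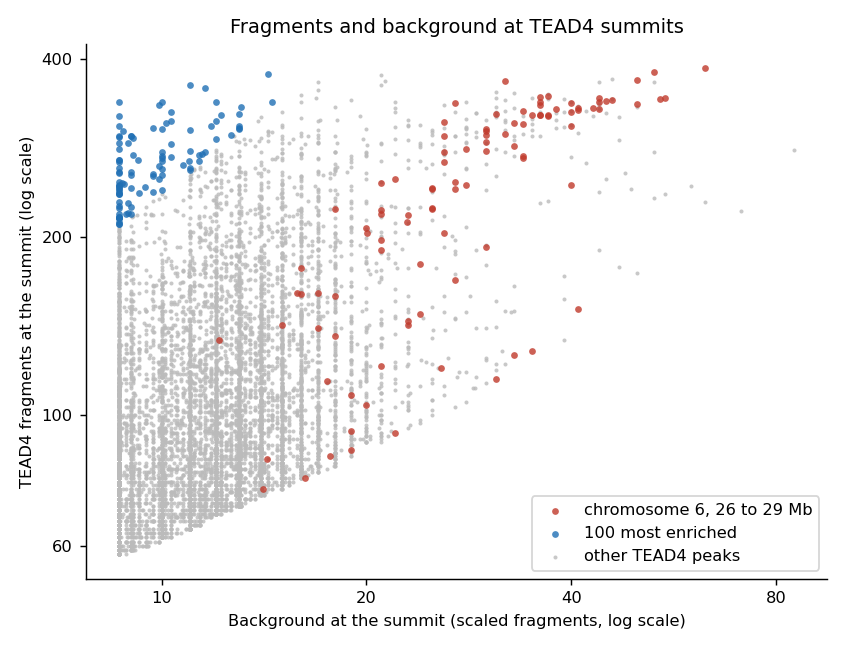
Fragments against background (scaled fragments) at the summit of each TEAD4 peak, both on log scales. The 100 most enriched peaks (blue) lie at the upper left, at a median of 269 fragments over 9.06, and the peaks of chromosome 6 between 26 and 29 Mb (red) lie to the right, at a median of 247.5 fragments over 27.5.

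The share with JUN showed the same break. In 10 equal parts by fragment count it was 57.9% (54.5 to 61.3) in the lowest, 78.2% (75.3 to 81.0) in the ninth and 64.5% (61.1 to 67.7) in the highest. The highest part was then divided by background, a division made after seeing this. Its 557 peaks with a background under 2 times the lowest had JUN at 81.7% (78.2 to 84.8) and YAP at 98.2%. Its 284 peaks with more background had JUN at 30.6% (25.3 to 36.4) and YAP at 35.6% (30 to 41.4). By enrichment the share with JUN showed no such break and was highest, 79.2% (76.3 to 81.9), in the strongest of 10 parts.

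The lowest −log10 p, 24.7, was shared by 5 peaks, so the 3 named here are an arbitrary pick among them. They had the same 70 fragments (54.6 to 88.4) over a background of 13.1 and an enrichment of 4.75. They lay on chromosome 17 (73641527 to 73641860), chromosome 14 (105154073 to 105154596) and chromosome 5 (159191377 to 159191680). Of the 5 tied peaks, 3 overlapped a YAP peak, 4 a TAZ peak and 5 a JUN peak. Over the whole list these shares were 68.7%, 78.8% and 68.3%. The lowest enrichment, chosen after its value was seen, was 2.90 on chromosome 1 (149223507 to 149224189), where 221 fragments stood over a background of 71, with none of the other factors.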

How the data were processed

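ChIP-seq libraries were made from sonicated, cross-linked MDA-MB-231 chromatin, per the labels. The antibody label put each sample in its group. The tools MACS2 2.0.10, Bowtie 0.12.7, CASAVA and SAMtools, and build hg19, are named in the submitters' processing notes. Per the labels, peaks came from the IDR framework (a measure of how peaks recur between replicates) at 0.01, against pooled IgG. The deposited list gives each peak's start, end and summit, and, as the authors' caller wrote them, a −log10 p-value and a fold enrichment (a ratio). The deposited q-values and score were not used further. Read depth is unknown here. The submitters call the replicates independent, but 1 list covers both.

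Fragment counts and backgrounds at summits were solved from the deposited fold enrichment and −log10 p with MACS2's arithmetic, which no header or label states; this was added after seeing the data. Without the pseudocount of 1, as first planned, 78.0% of peaks had a solution. Peaks overlapped at 1 bp or more. Densities use the span covered by the 4 lists. Bins take the summit. Equal-length lists took the highest −log10 p. Python 3.11.15, numpy 2.4.6, pandas 2.3.3 and scipy 1.17.1 were used, and the scripts were tested on simulated data.

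The list, the comparisons and the chromosome 6 interval were chosen with earlier results of these data known. Regions were named by rule: the 10 most enriched peaks, the 5 with the highest −log10 p, the 5 widest, the 10 fullest 1-Mb bins, the 5 fullest clusters, the 5 closest pairs and the 3 lowest −log10 p. Any other place named, chromosomes included, was chosen after its values were seen. Alternatives were other chaining distances, bins, width limits and overlaps, the stronger 50% of the list, and leaving out hot bins, the chromosome 6 interval or peaks of high background. Genes, motifs and sequences were not analysed here, since no hg19 genome or annotation was used.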

Additional observations from a re-analysis of the deposited data

How the results depend on the processing

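No paired analysis was possible because 1 list covers both replicates, and for the same reason no replicate could be left out. Of 61 alternative values for 15 results, 24 stayed within the counting interval or within 1.5 times a count and 37 moved. A change of direction was defined only for ratios. No ratio of wide over narrow peaks fell under 1, and a ratio of the densest to the sparsest chromosome cannot. Counts, shares and distances were given no direction. Of the 61 values, 8 were chosen after seeing the data. With the stronger 50% of the list, the ratio of the densest to the sparsest chromosome was 8.11 against 5.36. The median neighbour distance there was 253568.5 bp against 116914, and the share with a neighbour within 10 kb 17.8% against 25.4%. Clusters of 3 or more there numbered 54 against 214 (4.50% of peaks against 8.60%), and bins of 5 or more 195 (30.8% of peaks). Shorter lists give sparser peaks by construction, which applies to distances, neighbours and clusters but not to the chromosome ratio. Per bin with any peak the chromosome ratio was 3.68. Chaining at 5, 25 and 50 kb gave 76, 386 and 614 clusters with 2.87%, 16.6% and 28.9% of peaks. Bins of 8 or more numbered 249 (30.6% of peaks), bins of 15 or more 18 (4.22%), and bins moved by 500 kb held 18.1% of peaks against 17.0%. Leaving out peaks with a background at least 2 times the lowest, added after seeing the data, gave 22.5% with a neighbour within 10 kb, 6.12% in clusters of 3 or more and 12.1% in bins of 10 or more; the count of such bins was then 78 against 114. Split at the median width, wide over narrow peaks had ratios of 1.35 for enrichment (1.53 between quartiles), 1.85 for −log10 p (2.40) and 1.09 for background with no pseudocount (1.13), JUN at 77.1% and 59.6% and a neighbour within 10 kb at 29.05% of wide peaks. For the outer 10% of widths at each end the ratio was 2.73 for −log10 p and 1.22 for background, JUN was at 84.5% and 48.2%, and a neighbour was at 34.2% of wide peaks. With the JUN summit within 200 bp, JUN was at 68.8% of wide and 50.4% of narrow peaks. Without hot bins, a neighbour was at 26.7% of wide and 17.4% of narrow peaks. The cause of the moves other than list length was not tested. Read depth is unknown, so peaks missed at this depth cannot be counted.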

Other observations

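Some long stretches held no TEAD4 peak. The longest ran between the summits at 38682874 and 71737563 on chromosome 9, or 33.0 Mb, with no YAP, 2 TAZ and 3 JUN peaks inside. The next lay on chromosome 1 (119822263 to 144941406, 25.1 Mb, 8 JUN peaks) and chromosome 16 (31150395 to 47922233, 16.8 Mb, 10 JUN peaks). Each of these 3 takes in a centromere. A stretch of X (24888471 to 38731050, 13.8 Mb) held 8 JUN peaks and takes in none.

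Stretches without TEAD4 were also ranked by their number of JUN peaks, which favours long stretches. The fullest, on chromosome 10 between 35736756 and 44384200 (8.65 Mb), held 30 JUN, 5 YAP and 3 TAZ peaks. For its length that is fewer than the 10.2 JUN peaks per Mb of the whole chromosome. How much of this length is sequence to which reads can map was not taken into account. A short stretch on chromosome 8 between 22455121 and 23211635, or 0.756 Mb, held 23 JUN, 2 YAP and 4 TAZ peaks. Chromosome 8 as a whole had 8.08 JUN peaks per Mb. Of the 2605 bins of 1 Mb with a peak of any list, 412 had no TEAD4 peak. These 412 held 1383 JUN peaks, at most 15 in a bin, while the mean over all 2605 bins was 9.43 JUN peaks. All of these places were chosen after their values were seen.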
